A study of Mus musculus with 15 samples.

Results

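The endothelial cell genes described here are 34 mouse genes, chosen by name, that encode junction proteins, receptors, surface glycoproteins, secreted factors and transcription factors of the cells lining blood vessels. All 34 of 34 had a row among the 24060 entries of the count table, and all 34 passed the filter on low counts that left 15460 genes for testing. They were followed in RNA of whole pancreatic islets, the hormone-secreting clusters of the pancreas, in 5 groups of FVB/NJ mice aged 9 to 10 weeks with 3 libraries each. The mice named hIAPP_hCAST carried transgenes for human IAPP and human CAST, hIAPP mice a human IAPP transgene, rIAPP mice a rodent IAPP transgene, and hCAST mice a human CAST transgene, while WT mice carried none that the labels name. IAPP, islet amyloid polypeptide, is a peptide that beta cells secrete together with insulin, and its human form can aggregate into amyloid whereas the rodent form does not. CAST, calpastatin, inhibits the calpain proteases. Per the labels the insulin II promoter drove the transgenes, with the promoter of CAST in the hIAPP_hCAST mice given only as insulin. This promoter is known for its activity in beta cells, not in endothelial cells. Sex, founder line, litter and the number of mice behind a library are not given in the sources used here.

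Islets are among the most densely vascularised tissues. Their capillaries are fenestrated, which means that the endothelial wall has small pores closed by diaphragms, and beta cells keep this capillary bed by releasing the growth factor VEGF-A, which acts on the receptors Kdr and Flt1 of the neighbouring endothelium. A parallel system, in which angiopoietins act on the receptor Tek with Tie1 as its partner and Ptprb as the phosphatase that restrains it, is known to set how tightly the vessel wall is sealed. Endothelial identity is maintained by transcription factors of the ETS family such as Erg and of the SOX family such as Sox7, Sox17 and Sox18.

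The promoters of 5 genes are printed because these genes carry the main results given below: Eng, Clec14a and Egfl7 were higher in rIAPP than in WT islets, and Esm1 and Apln were lower in hIAPP than in WT islets. Ptprb and Plvap, whose calls were as stable, were not matched. Egfl7 has 3 windows, and the one with the middle position is printed, chosen after the motif matches were seen, with 2 ETS cores against 3 and 0 in the others. The windows are from RefSeq on GRCm38.p6, run 5′ to 3′ on the strand of the gene, and hold 250 bases before and 50 bases from the start of the transcript, written in lower case. Capitals mark the ETS core AGGAAG, or CTTCCT where it lies on the opposite strand. The window of Eng lies at chr2:32646345-32646644 on the plus strand, that of Clec14a at chr12:58269209-58269508 on the minus strand, that of Egfl7 at chr2:26583615-26583914 on the plus strand, that of Esm1 at chr13:113209409-113209708 on the plus strand and that of Apln at chrX:48034804-48035103 on the minus strand.
Eng: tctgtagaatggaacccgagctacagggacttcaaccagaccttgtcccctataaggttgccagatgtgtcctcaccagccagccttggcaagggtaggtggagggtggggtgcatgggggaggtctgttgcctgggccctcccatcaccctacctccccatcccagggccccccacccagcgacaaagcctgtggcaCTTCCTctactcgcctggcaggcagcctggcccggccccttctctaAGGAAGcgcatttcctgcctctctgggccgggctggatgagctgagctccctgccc
Clec14a: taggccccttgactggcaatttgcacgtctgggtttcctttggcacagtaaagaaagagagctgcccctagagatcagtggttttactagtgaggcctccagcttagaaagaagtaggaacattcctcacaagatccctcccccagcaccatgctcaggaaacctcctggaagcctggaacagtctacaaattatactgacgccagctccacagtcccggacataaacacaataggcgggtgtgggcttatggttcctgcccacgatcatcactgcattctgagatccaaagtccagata
Egfl7: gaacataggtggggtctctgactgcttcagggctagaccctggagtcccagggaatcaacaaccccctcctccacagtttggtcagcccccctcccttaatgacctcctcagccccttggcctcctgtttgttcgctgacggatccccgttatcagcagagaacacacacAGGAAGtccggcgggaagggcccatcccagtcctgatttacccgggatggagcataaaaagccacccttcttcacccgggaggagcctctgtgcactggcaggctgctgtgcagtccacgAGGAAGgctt
Esm1: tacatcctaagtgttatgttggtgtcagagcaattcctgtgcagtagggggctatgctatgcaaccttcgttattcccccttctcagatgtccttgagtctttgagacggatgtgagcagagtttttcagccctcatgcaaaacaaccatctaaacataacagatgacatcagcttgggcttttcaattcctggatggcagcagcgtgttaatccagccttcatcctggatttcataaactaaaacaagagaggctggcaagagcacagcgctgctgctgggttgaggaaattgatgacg
Apln: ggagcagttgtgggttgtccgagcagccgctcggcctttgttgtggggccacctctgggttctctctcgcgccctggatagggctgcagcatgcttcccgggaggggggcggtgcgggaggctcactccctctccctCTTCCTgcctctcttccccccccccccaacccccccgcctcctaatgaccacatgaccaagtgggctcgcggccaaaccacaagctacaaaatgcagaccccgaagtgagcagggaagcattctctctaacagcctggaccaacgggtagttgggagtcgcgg
The RefSeq table matched 17 of the 34 genes with 22 windows, since a gene can have several starts. The ETS core AGGAAG was found on either strand in 11 of the 22 windows, of 10 genes, a share of 50%, against 35.4% of all 32851 windows of the table. A SOX core, ACAATG, searched in the same way, was in 2 of the 22 windows (9.09%), those of Calcrl and Erg, against 12.6% of all windows, and 0 matches of the 2 motifs overlapped each other. Of the matched genes that were higher in rIAPP than in WT islets, 5 of 9 had an ETS core in at least 1 window, as had 5 of the 8 other matched genes. These matches describe letters in the windows only.

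The libraries held 28287011 to 40191501 counts, but 3 of them were dominated by genes that collect ribosomal reads (Rn45s, Lars2 and Mir6236), which took 94.3% of the counts in WT 2, 68.9% in WT 3 and 67.7% in rIAPP 2, against 0.286 to 11.8% in the other 12. Counts on all other genes were therefore 1667190 in WT 2, 8796210 in WT 3 and 9510502 in rIAPP 2, against 30199765 to 40062153 elsewhere. The third hIAPP_hCAST library stood apart as well. It had the lowest summed level of 20 acinar genes, markers of the exocrine pancreas around islets, at 7644 CPM against 12690 to 111700 CPM in the others. CPM are counts relative to library size, scaled by the TMM method. It also had the lowest level of the 15 libraries for 21 of the 34 genes, but this was not counted for all genes tested. Replicate numbers follow accession order. The numbers in the library titles fall into 1 range for hIAPP_hCAST and hIAPP, another for hCAST and WT, and a far higher one for rIAPP, so whatever these numbers mark cannot be told apart from the IAPP transgenes. No source says whether replicate libraries came from separate mice, so the p-values measure the spread between these libraries. Defining endothelial genes were present in every library: Pecam1 (CD31) had 48.9 to 116 CPM, Cdh5 (VE-cadherin) 14.6 to 34.7 and Kdr 119 to 203 over the 15 libraries. Vegfa and Vcam1 are made by other cell types too, so sums over the set leave both out and cover 32 genes.

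Levels of different genes were compared on a length-scaled measure, the deposited FPKM rescaled to the same total in each library without the 3 ribosomal-rich genes. On this scale Plvap, the protein of the fenestral diaphragms, had the highest mean level over the 15 libraries, 197 (range 145 to 278). Vegfa, the ligand, followed at 147 (119.5 to 192), and the ranges of these 2 genes overlapped. Below them lay Emcn, a sialomucin of capillaries and veins, at 65.0 (47.7 to 84.7), Kdr at 62.6 (46.6 to 86.0) and Pecam1 at 57.2 (39.7 to 81.0), whose ranges overlapped one another. Of the 33 neighbouring pairs in the order, the ranges over libraries overlapped in 32, and the exception was Vegfa against Emcn. Vwf, von Willebrand factor, a marker of large vessels, stood near the bottom at 1.77 (0.317 to 4.10). So did Sox17, a factor of arterial endothelium, at 1.24 (0.437 to 2.15). Apln, a gene of sprouting endothelium, had a lower mean than either, so this order of genes does not rank kinds of vessel. The lowest levels were those of Apln (0.783), Sox7 (0.617) and Cldn5 (0.506), and Cldn5, a tight junction protein abundant in brain vessels, had only 0 to 38 raw counts in a library.

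**Figure D1:**
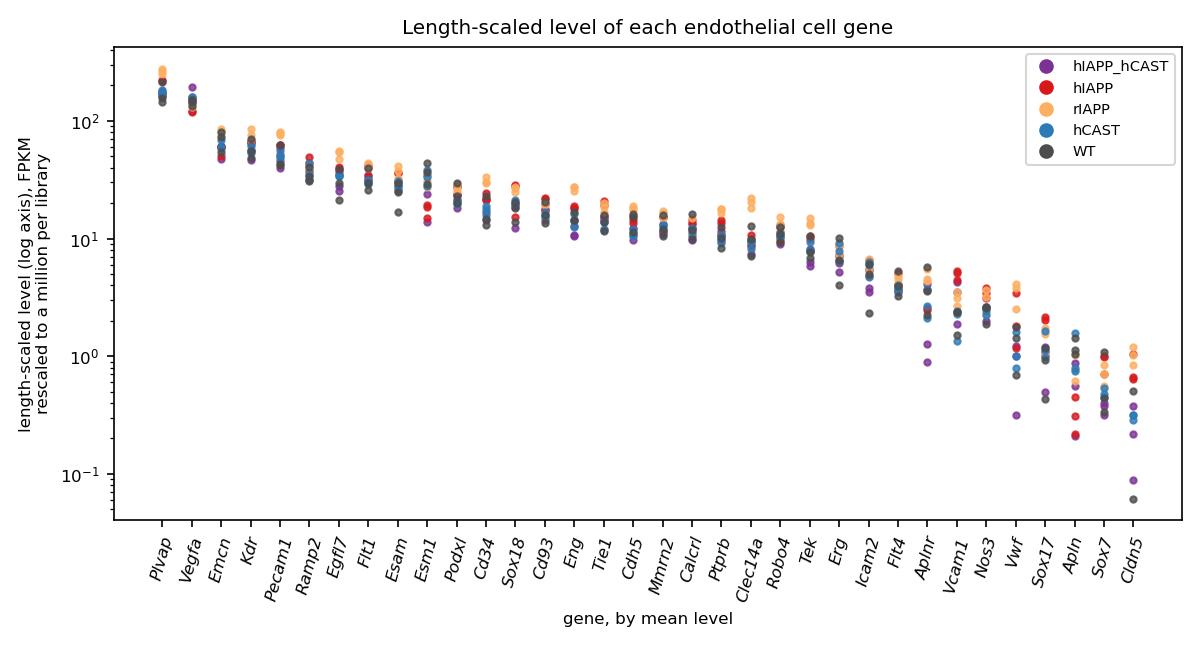
Length-scaled level of each of the 34 endothelial cell genes on a log axis, ordered by mean, with 1 point per library coloured by group. Plvap and Vegfa lie at the top with means of 197 and 147, and Cldn5 at the bottom with 0.506; the value of 0 for Cldn5 in WT 2 cannot be drawn on a log axis.

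Set side by side over the 5 groups, most of the genes were highest in the same group. The mean CPM was highest in rIAPP islets for 24 of the 34 genes, in hIAPP for 6, in WT for 3 and in hCAST for 1. It was lowest in hIAPP_hCAST islets for 25 of the 34, and in hIAPP, hCAST and WT for 3 each. The third hIAPP_hCAST library alone was the lowest of the 15 libraries for 21 of the 34. How often all genes tested were highest or lowest in each group or library was not counted, so these counts have no background beside them. Summed over the 32 genes, the level was 772 to 1014 CPM in hIAPP_hCAST, 1080 to 1167 in hIAPP, 1346 to 1401 in rIAPP, 940.0 to 1038 in hCAST and 971 to 1183 in WT islets. Every rIAPP library thus lay above all 12 others, while the ranges of hIAPP and WT overlapped, as did those of hIAPP_hCAST, hCAST and WT. In whole islets, a different number of endothelial cells and a different amount of RNA per endothelial cell cannot be told apart. The genes not highest in rIAPP were Esm1, Apln and Calcrl, highest in WT, Vegfa, highest in hCAST, and Vcam1, Cd93, Nos3, Sox7, Sox17 and Ramp2, highest in hIAPP. Those not lowest in hIAPP_hCAST were Vegfa, Esm1 and Apln, lowest in hIAPP, Vcam1, Tie1 and Cd93, lowest in hCAST, and Esam, Cldn5 and Sox17, lowest in WT.

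**Figure D2:**
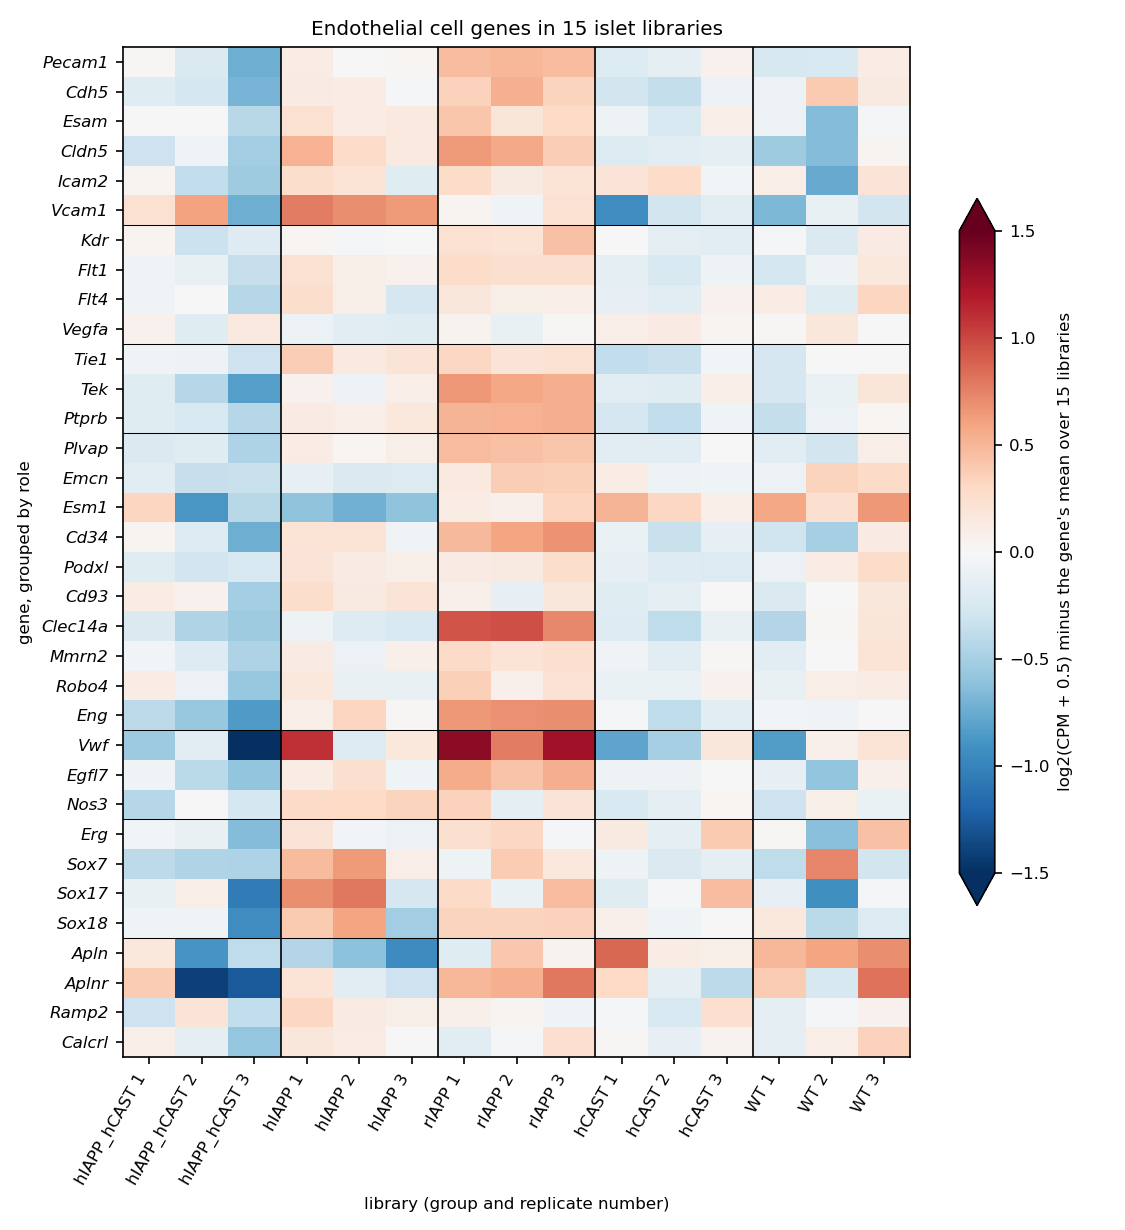
Heat map of the 34 genes (rows, grouped by role) in the 15 libraries (columns, by group), coloured by log2(CPM + 0.5) minus the mean of the gene over the libraries. The rIAPP columns are red for most genes, the third hIAPP_hCAST library is blue for nearly all, and Esm1 and Apln are blue in the hIAPP columns while Vcam1 is red there.

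The comparison of rIAPP with WT islets shows what accompanied a transgene for the IAPP form that does not aggregate. Endothelial genes were higher: 13 of the 34 rose and 0 fell at an adjusted p below 0.05 (edgeR quasi-likelihood test, Benjamini-Hochberg over all tested genes), against 10.7% of all genes tested that rose and 12.6% that fell. The median log2 fold change of the 34 was 0.34, and that of all genes 0.01. The 13 were Pecam1, Esam, Cldn5, Kdr, Flt1, Tie1, Tek, Ptprb, Plvap, Cd34, Clec14a, Eng and Egfl7. The calls for Ptprb, Plvap, Clec14a, Eng and Egfl7 were kept under all 15 alternatives. Without WT 1 the count was 6 of the 34, all higher, against 17.6% of all genes called in either direction. The total share of members called was then near that of all genes, and their median was 0.25 against 0.04 over all genes. Leaving out the 3 ribosomal-rich libraries leaves WT 1 as the lone WT library and assumes that it varies like the other groups. The median of the 34 was then 0.45.

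Surface proteins of capillary endothelium gave the largest difference among the 5 most stable calls. Clec14a, a C-type lectin-like protein of angiogenic endothelium, had 42.0, 43.0 and 36.0 CPM in rIAPP libraries, against 15.9, 21.9 and 24.8 in WT libraries (log2 fold change 0.99 ± 0.146 SE, adjusted p = 0.000118). Eng, the endoglin co-receptor of TGF-beta and BMP signalling, had 41.0, 42.0 and 42.4 CPM in rIAPP and 25.3, 25.0 and 26.1 in WT (log2 fold change 0.71 ± 0.124 SE, adjusted p = 0.000484). For both genes each rIAPP library lay well above every WT library, and Eng varied little within either group. Exons of Eng overlap those of Fpgs on the other strand, and Fpgs, a folate enzyme, rose as well (0.94 ± 0.196 SE, adjusted p = 0.0022), so with the strand setting of the counting not given the reads of the 2 genes cannot be told apart where they overlap. Fpgs averaged 8.90 CPM over the 15 libraries.

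Plvap, encoded at chr8:71497765-71511752 on GRCm38, had 237, 234 and 229.6 CPM in rIAPP and 155, 143 and 185 in WT (log2 fold change 0.53 ± 0.0926 SE, adjusted p = 0.000531). Cd34, a sialomucin shared with blood progenitors, had 33.4, 36.0 and 37.9 CPM in rIAPP and 19.1, 16.6 and 25.8 in WT (log2 fold change 0.76 ± 0.183 SE, adjusted p = 0.0079). Again the groups did not overlap, and WT 3 was the highest WT library for both genes. The other 6 of the 10 surface genes did not pass. They were Podxl and Emcn, both sialomucins, Cd93, a lectin-like receptor, Mmrn2, the matrix protein that Cd93 and Clec14a bind, Robo4, a guidance receptor, and Esm1, a secreted proteoglycan, with log2 fold changes between -0.38 ± 0.244 for Esm1 and 0.25 ± 0.119 for Mmrn2.

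All 3 genes of the angiopoietin receptor system rose in rIAPP islets. Ptprb, the phosphatase, encoded at chr10:116275523-116389535 on GRCm38, had 89.6, 90.0 and 91.7 CPM in rIAPP, against 49.0, 59.1 and 64.0 in WT (log2 fold change 0.67 ± 0.101 SE, adjusted p = 0.000134). Tek, the receptor, had 29.7, 28.3 and 27.6 CPM in rIAPP, against 15.7, 17.5 and 21.3 in WT (log2 fold change 0.66 ± 0.156 SE, adjusted p = 0.00569). Tie1 differed less, with 32.7, 30.1 and 30.9 CPM in rIAPP, against 22.1, 26.3 and 26.4 in WT (log2 fold change 0.36 ± 0.114 SE, adjusted p = 0.032). The rIAPP libraries did not overlap the WT libraries for any of the 3, although the call for Tek was lost without WT 1 and that for Tie1 in 4 of the 6 fits that each left out 1 library.

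The VEGF receptors differed by smaller amounts and the ligand did not pass. Kdr, which carries most VEGF-A signalling, had 175, 172 and 203 CPM in rIAPP and 148, 128 and 163 in WT (log2 fold change 0.31 ± 0.0998 SE, adjusted p = 0.0308). Flt1, which binds VEGF-A tightly with little signalling of its own, had 116, 114 and 113 CPM in rIAPP and 80.2, 91.1 and 107 in WT (log2 fold change 0.30 ± 0.0991 SE, adjusted p = 0.0356). Both calls were lost in several fits that left out 1 library, 3 of 6 for Kdr and 5 of 6 for Flt1. Flt4, the VEGF-C receptor, had 11.2 to 11.9 CPM in rIAPP and 9.19 to 13.3 in WT (-0.03 ± 0.158 SE). Vegfa had 250.5 to 282 CPM in rIAPP and 269 to 305 in WT (-0.07 ± 0.0852 SE, adjusted p = 0.625), with overlapping groups.

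Among junction and adhesion genes, Pecam1 had 113, 116 and 113 CPM in rIAPP and 69.2, 69.6 and 88.1 in WT (log2 fold change 0.58 ± 0.152 SE, adjusted p = 0.0124). Esam, a junctional immunoglobulin protein, had 32.7, 27.7 and 30.0 CPM in rIAPP and 22.8, 15.3 and 23.8 in WT (log2 fold change 0.46 ± 0.137 SE, adjusted p = 0.0215). The groups were apart for both, and the lowest Esam value was that of WT 2, the shallowest library. Cldn5 was called with 0.720, 0.666 and 0.513 CPM in rIAPP and 0.0430, 0 and 0.308 in WT (log2 fold change 2.54 ± 0.706 SE, adjusted p = 0.0153), where WT 2 had 0 counts and the 3 WT libraries together 6, so the size of its difference rests on few counts. The calls for Pecam1 and, among the surface genes, Cd34 were lost without WT 1, that for Esam without rIAPP 1, and that for Cldn5 without either of these libraries. Cdh5 did not pass, with 30.4, 34.7 and 30.1 CPM in rIAPP and 22.3, 31.5 and 26.3 in WT (log2 fold change 0.31 ± 0.139 SE, adjusted p = 0.119), nor did Icam2 (0.18 ± 0.239 SE), an adhesion protein for leukocytes, or Vcam1 (0.63 ± 0.360 SE).

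Of the secreted factors and enzymes, Egfl7, an extracellular protein of growing vessels, rose, with 38.3, 35.1 and 38.0 CPM in rIAPP and 23.8, 17.1 and 27.3 in WT (log2 fold change 0.64 ± 0.139 SE, adjusted p = 0.00318). Its exons overlap those of Agpat2 on the other strand, which did not pass (0.03 ± 0.121 SE, adjusted p = 0.919). Vwf, the clotting protein stored in endothelial granules, had 15.3, 10.1 and 14.5 CPM in rIAPP and 3.01, 6.13 and 6.71 in WT (log2 fold change 1.53 ± 0.622 SE, adjusted p = 0.101). Its groups did not overlap, but the spread within each was wide and it did not pass. Nos3, endothelial nitric oxide synthase, had 4.37 to 6.38 CPM in rIAPP and 3.85 to 5.25 in WT (0.39 ± 0.178 SE). None of the 4 transcription factors and none of the 4 peptide ligand and receptor genes passed: Erg, Sox7, Sox17 and Sox18 had log2 fold changes of 0.05 ± 0.221, 0.57 ± 0.368, 0.50 ± 0.443 and 0.40 ± 0.297, and Apln, Aplnr, Ramp2 and Calcrl of -0.72 ± 0.458, 0.14 ± 0.490, 0.07 ± 0.162 and -0.06 ± 0.170.

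**Figure D3:**
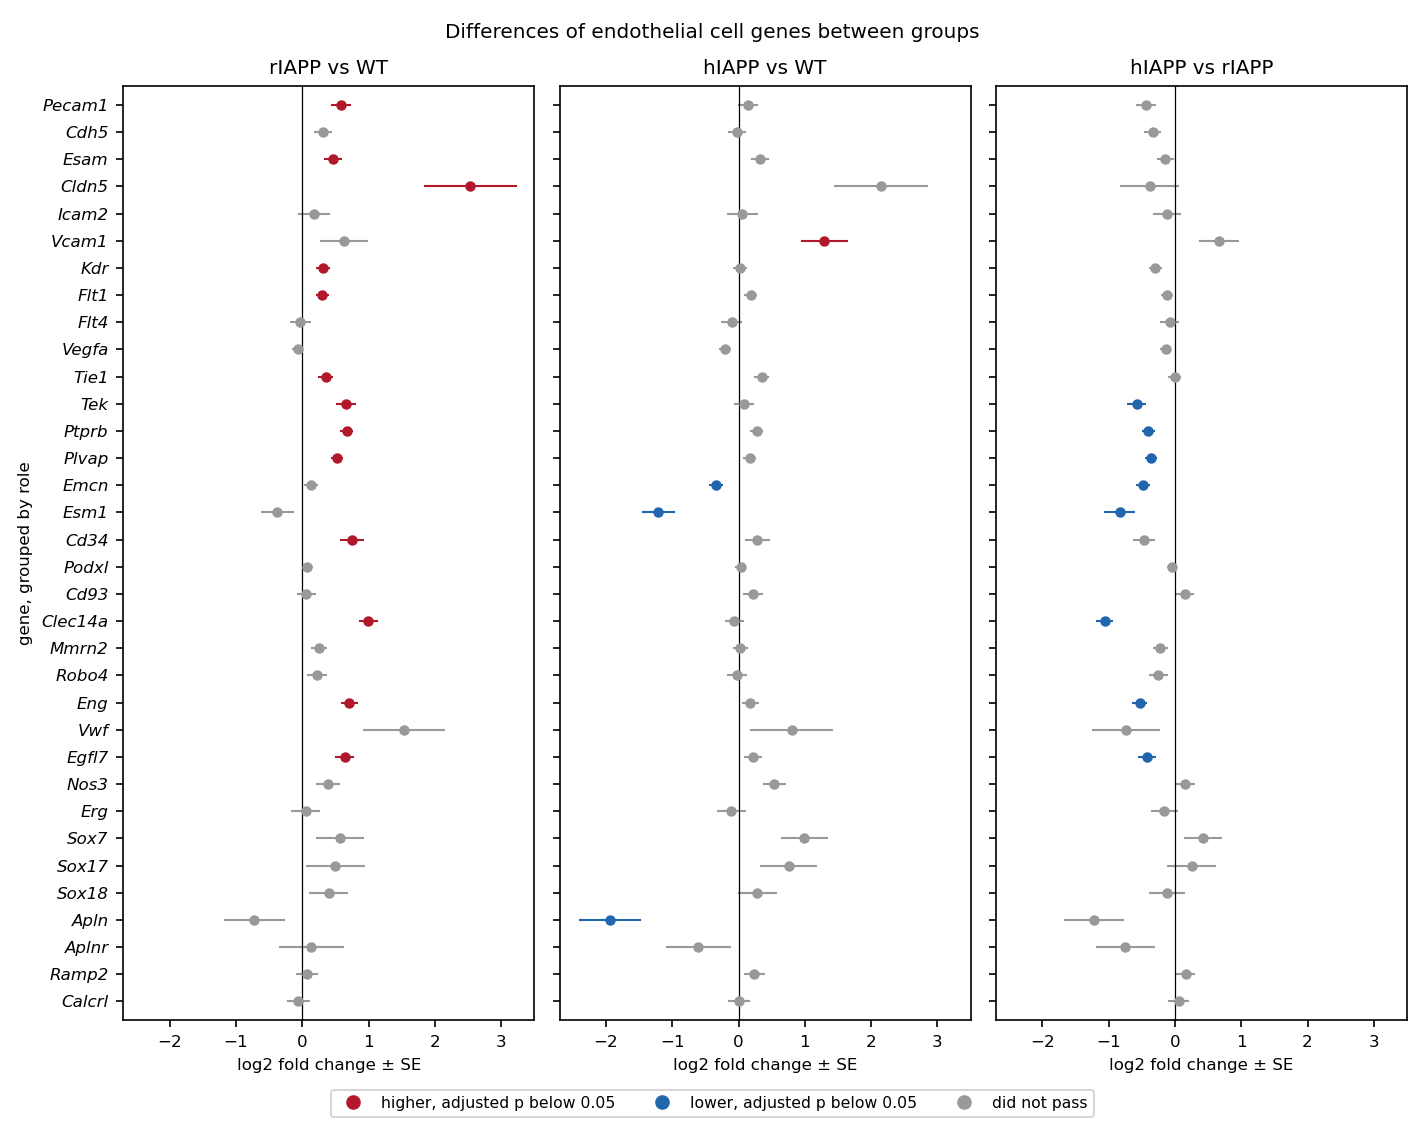
Log2 fold change with its standard error for each of the 34 genes (rows, grouped by role) in rIAPP vs WT, hIAPP vs WT and hIAPP vs rIAPP, red where higher and blue where lower at an adjusted p below 0.05. In rIAPP vs WT 13 genes are red and 0 blue, in hIAPP vs WT 1 is red and 3 are blue, and in hIAPP vs rIAPP 0 are red and 8 blue.

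In hIAPP islets Esm1, Apln and Emcn were lower and Vcam1 was higher than in WT islets. Thus 1 of the 34 genes rose and 3 fell relative to WT islets, against 6.27% of all genes tested that rose and 5.59% that fell, so the share of members called was near that of all genes, and 30 did not pass. The split between higher and lower was 3 and 3 with DESeq2, 2 and 2 with only the compared groups, and 4 and 2 against hCAST. In these 3 fits 14.1%, 11.3% and 7.19% of all genes were called in either direction. Of the 34 log2 fold changes, 24 were positive. The median log2 fold change was 0.16 over the 34 and 0.02 over all genes. This comparison shares its WT libraries with that of rIAPP. The count was 2 without hIAPP 1 or without hIAPP 2 and 1 without hIAPP 3. The shares of all genes called in either direction were then 7.66%, 6.42% and 6.44%. Without the ribosomal-rich libraries, which leaves WT 1 alone, the median of the 34 was 0.23.

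Esm1, also called endocan, is known as a VEGF-induced product of sprouting endothelial cells. It had 16.4, 15.1 and 16.4 CPM in hIAPP, against 38.0, 29.8 and 39.9 in WT (log2 fold change -1.21 ± 0.245 SE, adjusted p = 0.00883). The hIAPP libraries lay close together and all below the WT libraries, and the call was kept in each of the 6 fits that left out 1 library. Of the counts on the 32 genes, Esm1 made up 1.37 to 1.52% in hIAPP libraries and 3.02 to 3.91% in WT libraries, so its lower level went with a lower share among endothelial genes. Over the 15 alternatives the adjusted p ran from 4.17e-06 to 0.1, and only leaving out the ribosomal-rich libraries lost the call.

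Apln, the apelin peptide of sprouting endothelium, had 0.605, 0.474 and 0.277 CPM in hIAPP, against 1.61, 1.75 and 1.93 in WT (log2 fold change -1.94 ± 0.468 SE, adjusted p = 0.0145). The groups did not overlap at these low levels, and the call was lost without hIAPP 3 or without WT 3. Its receptor Aplnr had 5.55, 4.20 and 3.74 CPM in hIAPP, against 6.32, 3.94 and 8.71 in WT (log2 fold change -0.61 ± 0.488 SE, adjusted p = 0.456), and did not pass. Emcn fell by a small amount, with 38.1, 35.6 and 36.0 CPM in hIAPP, against 39.2, 52.5 and 50.9 in WT (log2 fold change -0.34 ± 0.106 SE, adjusted p = 0.0445). The higher WT values were those of the ribosomal-rich WT 2 and WT 3. The call for Emcn was lost in 5 of the 6 fits without 1 library. It was also lost with only the compared groups, with limma on the rescaled FPKM and with hCAST in place of WT.

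Vcam1, an adhesion protein that inflammatory cytokines induce on endothelium and that stromal cells and macrophages can also make, had 7.69, 7.30 and 6.99 CPM in hIAPP, against 2.52, 3.94 and 3.47 in WT (log2 fold change 1.29 ± 0.350 SE, adjusted p = 0.029). Every hIAPP library exceeded every WT library, yet the call was lost in 5 of the 6 fits without 1 library. In the same islets 17 of 22 macrophage genes rose and 0 fell, against 6.27% and 5.59% of all genes tested. Their summed level was 464 to 676 CPM in hIAPP and 120.0 to 171 in WT. The part of this in the level of Vcam1 was not tested.

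Pecam1, Kdr and Plvap did not pass, and their libraries overlapped between hIAPP and WT islets. Pecam1 had 81.7 to 88.0 CPM in hIAPP and 69.2 to 88.1 in WT (0.14 ± 0.151 SE), Kdr 147 to 152 in hIAPP and 128 to 163 in WT (0.02 ± 0.0996 SE), and Plvap 176 to 186 in hIAPP and 143 to 185 in WT (0.17 ± 0.0923 SE). Tie1 (0.35 ± 0.113 SE, adjusted p = 0.0533), Nos3 (0.54 ± 0.175 SE, adjusted p = 0.055) and Cldn5 (2.15 ± 0.707 SE, adjusted p = 0.0574) came nearest to passing. Vegfa had 238 to 255 CPM in hIAPP and 269 to 305 in WT (log2 fold change -0.20 ± 0.0852 SE, adjusted p = 0.129). Its groups did not overlap, but it did not pass.

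Set directly against each other, the human and the rodent transgene groups differed in 8 of the 34 genes, all lower in hIAPP than in rIAPP, against 5.28% of all genes tested that were lower and 7.71% that were higher. The median log2 fold change of the 34 was -0.23, and that of all genes 0.01. Clec14a had 20.6, 18.9 and 18.4 CPM in hIAPP, against 42.0, 43.0 and 36.0 in rIAPP (log2 fold change -1.06 ± 0.133 SE, adjusted p = 3.97e-05). Eng had 27.8, 32.7 and 26.2 CPM in hIAPP, against 41.0, 42.0 and 42.4 in rIAPP (log2 fold change -0.53 ± 0.114 SE, adjusted p = 0.00406). The groups were far apart for Clec14a and less so for Eng, where hIAPP 2 came nearest to the rIAPP libraries, and both calls were kept under all 14 alternatives. Fpgs, which overlaps Eng, did not pass here (-0.28 ± 0.170 SE, adjusted p = 0.338).

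Tek had 19.6, 17.6 and 20.1 CPM in hIAPP, against 29.7, 28.3 and 27.6 in rIAPP (log2 fold change -0.58 ± 0.141 SE, adjusted p = 0.0112). Ptprb had 68.4, 67.0 and 70.2 CPM in hIAPP, against 89.6, 90.0 and 91.7 in rIAPP (log2 fold change -0.40 ± 0.0949 SE, adjusted p = 0.00874). The groups were apart for both, whereas Tie1, the third gene of that system, had 29.1 to 34.2 CPM in hIAPP and 30.1 to 32.7 in rIAPP (-0.01 ± 0.104 SE). Plvap (-0.36 ± 0.0907 SE), Emcn (-0.48 ± 0.101 SE), Esm1 (-0.83 ± 0.235 SE) and Egfl7 (-0.42 ± 0.129 SE) were the other 4 lower genes, and the calls for Esm1 and Egfl7 were lost in 6 and 5 of the 6 fits without 1 library. Those for Tek and Plvap were lost without hIAPP 2 or without rIAPP 1. The count was 5 without hIAPP 2 and 4 without rIAPP 1, against 9.37% and 8.54% of all genes called in either direction. Fitting only these 2 groups gave 15 lower genes and 1 higher, Vcam1, where 18.7% of all genes were called in either direction. The share of Clec14a among the counts of the 32 genes was 1.71 to 1.76% in hIAPP and 2.57 to 3.19% in rIAPP libraries, against 1.64 to 2.22% in WT libraries. Plvap took 15.9 to 17.0% in hIAPP and 16.4 to 17.4% in rIAPP, against 14.5 to 16.0% in WT, so its share moved much less than that of Clec14a.

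**Figure D4:**
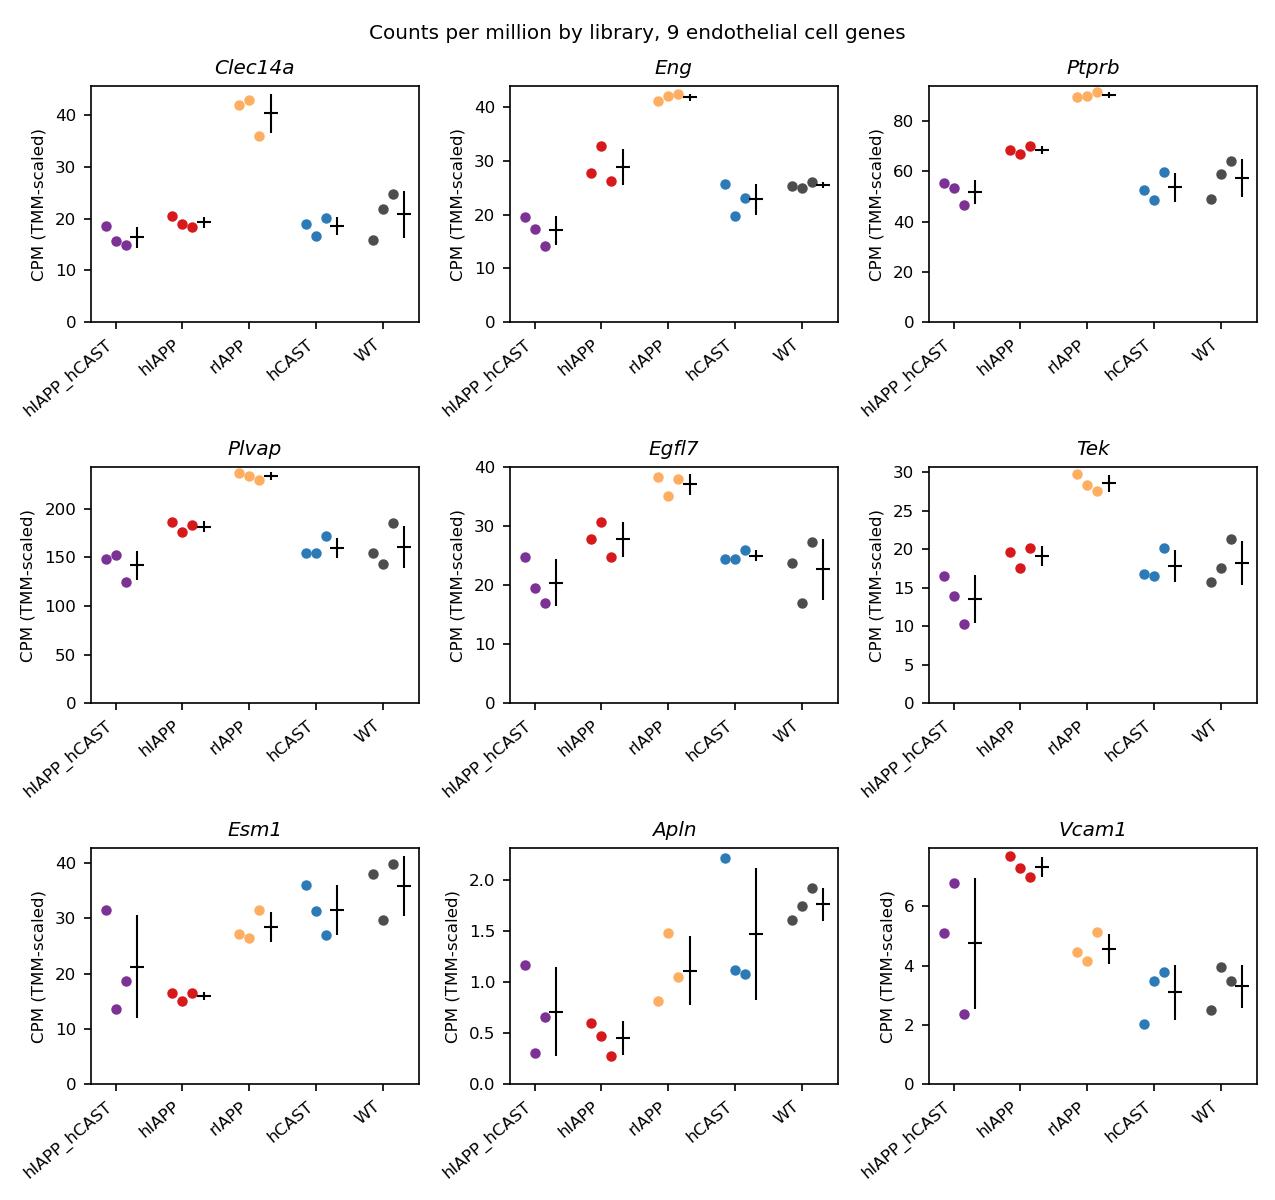
CPM of 9 endothelial cell genes in each library (points, 3 per group) with the mean and SD of the group (black). The rIAPP libraries lie above all others for Clec14a, Eng, Ptprb, Plvap, Egfl7 and Tek, the hIAPP libraries lie below the WT libraries for Esm1 and Apln and above them for Vcam1.

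In islets with both transgenes Eng and Sox7 were lower than in islets with the human IAPP transgene alone. In hIAPP_hCAST islets 2 of the 34 genes fell and 0 rose relative to hIAPP islets, against 0.375% of all genes tested that fell, with a median log2 fold change of -0.36 over the 34 and of 0.00 over all genes. At an unadjusted p below 0.05, 21 of the 34 were lower and 0 higher, against 11.3% of all genes in either direction. Several lists of other cells had lower medians than the 34 in this comparison: -1.17 over 14 fibroblast and matrix genes (14 negative, 1 called), -0.60 over 22 macrophage genes (21 negative, 2 called), -0.57 over 13 basement membrane genes (13 negative) and -0.51 over 15 pericyte and smooth muscle genes (15 negative, 3 called). The medians were -0.29 over 20 acinar, -0.32 over 12 duct and 0.08 over 14 beta cell genes. The part of these in the endothelial differences was not tested. Eng had 19.6, 17.4 and 14.1 CPM in hIAPP_hCAST, against 27.8, 32.7 and 26.2 in hIAPP (log2 fold change -0.76 ± 0.115 SE, adjusted p = 0.00726). Its groups did not overlap, and the call was kept in 12 of 13 alternatives, being lost when only the 2 groups were fitted. Fpgs, on the other strand, had -0.43 ± 0.169 SE and did not pass (adjusted p = 0.322). Sox7 had 0.530, 0.484 and 0.483 CPM in hIAPP_hCAST, against 1.38, 1.59 and 0.943 in hIAPP (log2 fold change -1.38 ± 0.290 SE, adjusted p = 0.0443). These levels were low, and 5 of the 6 fits without 1 library lost the call.

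Podxl (-0.37 ± 0.0796 SE, adjusted p = 0.0505), Ptprb (-0.41 ± 0.0948 SE, adjusted p = 0.0646) and Plvap (-0.36 ± 0.0906 SE, adjusted p = 0.087) came nearest to passing. Plvap had 149, 152 and 125 CPM in hIAPP_hCAST, against 186, 176 and 183 in hIAPP. Its libraries were apart, the third hIAPP_hCAST library being the lowest. Without that library 1 gene was called, against 0.506% of all genes in either direction, and the median was -0.22. Without hIAPP 1 or without hIAPP 2 the count was also 1, against 0.134% and 0.115% of all genes. Without hIAPP_hCAST 1 it was 4, against 0.825%. Esm1, low in hIAPP, had 31.6, 13.5 and 18.7 CPM in hIAPP_hCAST, against 16.4, 15.1 and 16.4 in hIAPP (log2 fold change 0.41 ± 0.232 SE, adjusted p = 0.557), with hIAPP_hCAST 1 at the level of WT libraries and the other 2 libraries near the hIAPP libraries. Apln was likewise highest in hIAPP_hCAST 1, with 1.17, 0.310 and 0.654 CPM in hIAPP_hCAST and 0.605, 0.474 and 0.277 in hIAPP (log2 fold change 0.66 ± 0.435 SE, adjusted p = 0.632), and Aplnr had 6.34, 1.49 and 1.70 CPM in hIAPP_hCAST and 5.55, 4.20 and 3.74 in hIAPP.

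On the CAST background, human IAPP gave 0 calls among the 34 (hIAPP_hCAST vs hCAST, edgeR), against 0.75% of all genes tested in either direction. The median was -0.17, 8 of the 34 were lower at an unadjusted p below 0.05 against 9.48% of all genes in either direction, and DESeq2 called 0. Apln (-1.04 ± 0.398 SE, adjusted p = 0.354), Esm1 (-0.56 ± 0.229 SE, adjusted p = 0.436) and Vcam1 (0.61 ± 0.297 SE, adjusted p = 0.557) had the signs that they had between hIAPP and WT. Esm1 had 13.5 to 31.6 CPM in hIAPP_hCAST and 27.0 to 36.0 in hCAST, with overlapping libraries. Without hIAPP_hCAST 1, 2 genes, Esm1 and Aplnr, were lower, against 0.601% of all genes called in either direction. Without hIAPP_hCAST 3, 1 gene, Vcam1, was higher, against 2.28% of all genes.

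The interaction, which is the human IAPP difference on the CAST background minus that on the WT background, gave 0 calls among the 34 and 0% of all genes in edgeR, and 0 among the 31 to which DESeq2 gave an adjusted p. At an unadjusted p below 0.05, 9 of the 34 had a negative interaction and 0 a positive one, against 8.71% of all genes in either direction, and the median was -0.32 over the 34. The smallest adjusted p was that of Eng (-0.60 ± 0.168 SE, adjusted p = 0.342). The CAST transgene alone gave 0 calls among the 34 in edgeR (hCAST vs WT) and 0 among the 24 to which DESeq2 gave an adjusted p, against 0.0194% of all genes, with a median of -0.05, and 2 of the 34 were lower at an unadjusted p below 0.05 against 7.33% of all genes. Eng had 25.6, 19.8 and 23.1 CPM in hCAST and 25.3, 25.0 and 26.1 in WT (-0.16 ± 0.123 SE), and Plvap had 154, 154 and 172 CPM in hCAST and 155, 143 and 185 in WT (-0.02 ± 0.0923 SE), with overlapping groups for both.

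Because WT held 2 of the 3 ribosomal-rich libraries, the IAPP groups were also set against hCAST, whose 3 libraries were deep. Against hCAST, 17 of the 34 genes were higher in rIAPP and 0 lower, among 22.4% of all genes called in either direction. In hIAPP 4 were higher, namely Vcam1, Tie1, Ptprb and Podxl, and 2 were lower, Esm1 and Apln, among 7.19% of all genes called in either direction.

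A wider list of 56 other endothelial genes, all tested, gave 16 higher and 1 lower in rIAPP than in WT islets, with a median log2 fold change of 0.40, where the shares of all genes were 10.7% and 12.6%. Its summed level did not follow that of the 32 genes, with 1727 to 1931 CPM in hIAPP_hCAST, 1998 to 2147 in hIAPP, 1801 to 1842 in rIAPP, 1708 to 1847 in hCAST and 1616 to 1947 in WT islets. The hIAPP libraries were thus highest, and the rIAPP range lay within that of WT. Sema3g, a semaphorin of arterial endothelium, rose (1.08 ± 0.138 SE, adjusted p = 2.97e-05), and so did Stab1, a scavenger receptor of sinusoidal endothelium and macrophages (0.51 ± 0.144 SE, adjusted p = 0.0158). The lower gene was Ece1, which cleaves endothelin and is also made outside vessels (-0.86 ± 0.0990 SE, adjusted p = 1.05e-05). In hIAPP islets 7 of the 56 rose and 1 fell relative to WT (median 0.19), against 6.27% and 5.59% of all genes, among them Igfbp7, a secreted binding protein (0.79 ± 0.0960 SE, adjusted p = 0.000189), and Stab1 (1.14 ± 0.142 SE, adjusted p = 0.000189). Between hIAPP and rIAPP, 3 were higher and 9 lower, against 7.71% and 5.28% of all genes. In hIAPP_hCAST against hIAPP the median of the 56 was -0.37.

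Of 40 genes of angiogenic signalling, 39 were tested. Of these, 14 were higher and 2 lower in rIAPP than in WT (median 0.33), against 10.7% and 12.6% of all genes tested. In hIAPP 9 were higher and 0 lower than in WT (median 0.40), against 6.27% and 5.59% of all genes tested. Bmp6, a ligand of the pathway that Eng serves, rose in rIAPP (1.55 ± 0.178 SE, adjusted p = 9.81e-06). Jag2, a Notch ligand, fell in rIAPP (-1.03 ± 0.112 SE, adjusted p = 5.49e-06), while Jag1, another Notch ligand, rose there (0.54 ± 0.122 SE, adjusted p = 0.00413) and in hIAPP (0.87 ± 0.121 SE, adjusted p = 0.000398). Cxcl12, a chemokine of perivascular cells, rose in rIAPP (1.21 ± 0.164 SE, adjusted p = 6.46e-05) and in hIAPP (1.22 ± 0.162 SE, adjusted p = 0.00038). Apela, the untested gene, had 2 counts in all 15 libraries.

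Markers of other islet and exocrine cells differed between the same groups. The 20 acinar genes summed to 77840 to 109200 CPM in rIAPP, against 12690 to 58100 in WT, with 1 of the 20 higher and 0 lower. The 14 beta cell genes summed to 39260 to 51100 CPM in rIAPP, against 115800 to 125500 in WT, with 14 of 14 lower. Every gene of these lists was tested. Relative to WT, 10.7% of all genes tested rose and 12.6% fell in rIAPP, and 6.27% rose and 5.59% fell in hIAPP. CPM are relative to a shared total, and the part of the acinar and beta cell shifts in the endothelial differences was not tested. In hIAPP the beta cell genes summed to 74370 to 84830 CPM with 9 of 14 lower than in WT, the acinar genes to 49270 to 108200 CPM with 0 of 20 called, and the macrophage genes to 464 to 676 CPM, whereas macrophage genes in rIAPP summed to 116 to 152 CPM with 1 higher and 1 lower of 22. In hIAPP_hCAST the acinar sum ran over 7644 to 111700 CPM, the widest range of the 5 groups.

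Pericytes and smooth muscle cells, which wrap capillaries and arterioles, were followed by 15 tested genes of 16. Their sum was 305 to 438 CPM in hIAPP_hCAST, 501 to 575 in hIAPP, 405 to 423 in rIAPP, 283 to 352 in hCAST and 288 to 329 in WT. The order of hIAPP and rIAPP was thus opposite to that in the endothelial sum, with hIAPP above rIAPP. The range of hIAPP_hCAST lay below that of hIAPP and overlapped that of rIAPP. Relative to WT, 10 of 15 rose and 0 fell in hIAPP (median 0.77), against 6.27% and 5.59% of all genes tested. In rIAPP 4 rose and 0 fell (median 0.26), against 10.7% and 12.6% of all genes tested. Pdgfrb, the receptor that defines pericytes, rose in hIAPP (1.31 ± 0.155 SE, adjusted p = 0.00021) and in rIAPP (0.67 ± 0.155 SE, adjusted p = 0.00555). Between hIAPP and rIAPP 7 of the 15 were higher and 1 lower, against 7.71% and 5.28% of all genes tested.

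**Figure D5:**
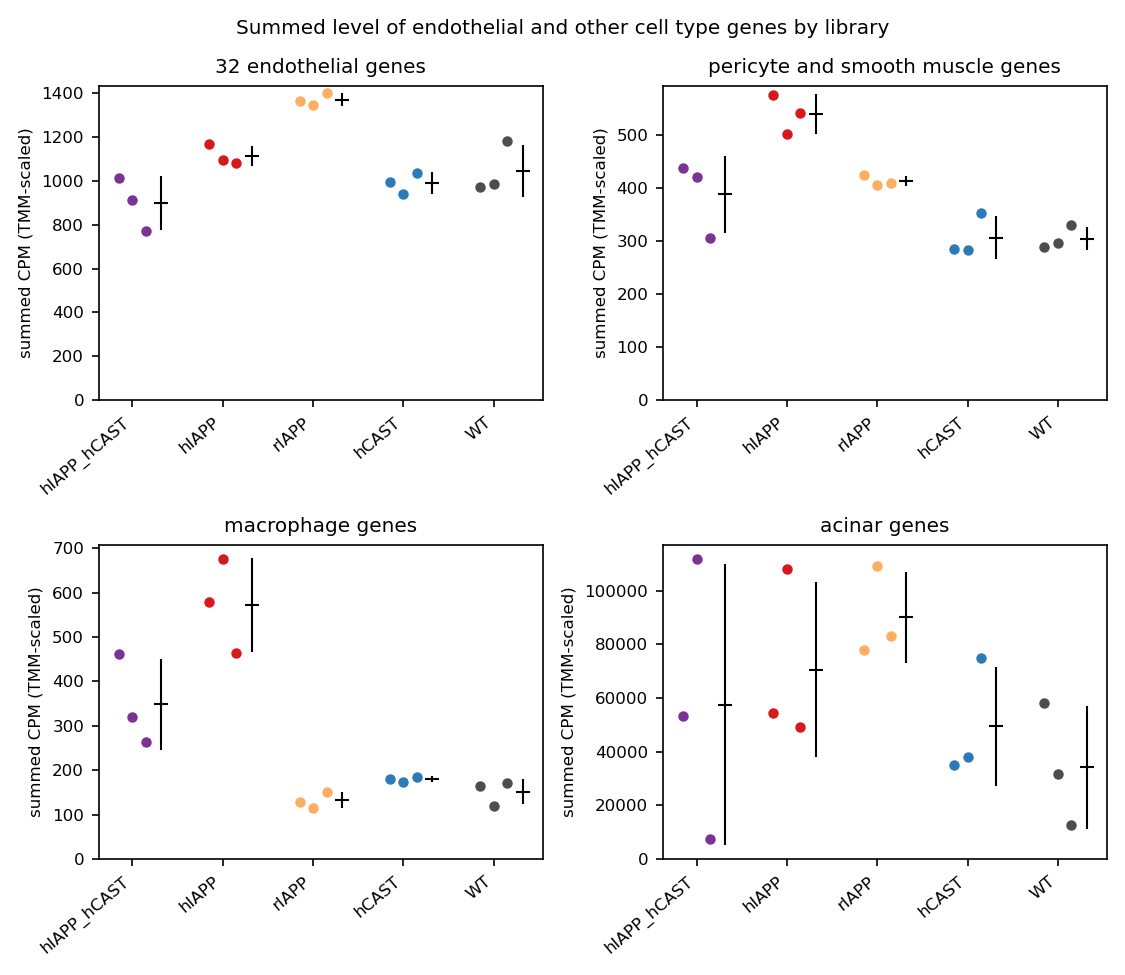
Summed CPM per library (points, 3 per group) with the group mean and SD (black) for the 32 endothelial genes and for pericyte and smooth muscle, macrophage and acinar genes. The endothelial sum is highest in the rIAPP libraries, at 1346 to 1401 CPM, the pericyte and macrophage sums are highest in hIAPP libraries, and the acinar sum spreads widely within groups.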

How the data were processed

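RNA of islets was measured in 15 libraries of 5 groups. The authors deposited raw read counts per gene symbol and FPKM (length- and depth-scaled fragments). The submitters' processing notes name STAR, HTSeq and the builds GRCm38 and mm10; versions, annotation and strand setting are not given in the sources used here. All columns were matched by library title, and 0 were left unused.

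All 15 libraries entered 1 fit in edgeR 4.0.16 (R 4.3.3), with TMM factors, default filtering of low counts, robust quasi-likelihood dispersions and a coefficient for each group. Spread between replicates, as the common biological coefficient of variation, came to 0.132. Genes were called at a Benjamini-Hochberg adjusted p below 0.05 over the 15460 tested. The SE is the log2 fold change divided by the square root of F. Alternatives used DESeq2 1.42.0 and limma 3.58.1. The deposited FPKM, rescaled to 1 total per library without Rn45s, Lars2 and Mir6236, set levels between genes. No replicate pair agreed within sampling noise, and the fit was tested on simulated data. Gene positions are from GENCODE on GRCm38.

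The members and lists were chosen with earlier results of these data known. Every member could be named. Up to 4 genes of each other list were eligible, by the smallest p in rIAPP vs WT, then in hIAPP vs WT. Fpgs and Agpat2 were named for exons that overlap a member. Exons of Cd34, Nos3 and Ramp2 overlap those of Gm16897, Atg9b and Vps25, which did not pass in any comparison. Those of Egfl7 also overlap Mir126a and Mir126b, which were not tested. The limit on overlapping reads given for Eng holds for these genes too.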

Additional observations from a re-analysis of the deposited data

How the results depend on the processing

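Over all alternatives, 0 of the calls on single genes changed sign. Percentages in brackets are the shares of all genes called in either direction in the same fit. In hIAPP vs WT the 4 calls (11.9%) became 6 with hCAST in place of WT (7.19%). They became 1 to 4 without 1 library (6.35 to 9.02%). Without the 3 ribosomal-rich libraries, which leaves 1 WT library, the median of the 34 in this comparison was 0.23. In rIAPP vs WT the 13 (23.3%) became 16 with only the compared groups (25.9%) and 17 with hCAST in place of WT (22.4%). Without 1 library they became 6 to 13 (16.8 to 21.3%). Without the ribosomal-rich libraries the median of the 34 in this comparison was 0.45. In hIAPP_hCAST vs hIAPP the 2 (0.466%) became 7 with DESeq2 (1.89%) and 4 with no filter beyond 1 count (0.564%). With only the compared groups they became 0 (0.0132%). Limma on the rescaled FPKM gave 1 with a pseudocount of 1 (0.22%) and 1 with 0.1 (0.0582%). Without 1 library the count was 1 to 4 (0.115 to 1.12%). In hIAPP_hCAST vs hCAST leaving out 1 library gave 0 to 2 (0.23 to 2.28%). In hIAPP vs rIAPP the 8 (13%) became 16 with only the compared groups (18.7%). Limma at pseudocounts of 1 and 0.1 gave 3 (7.52%) and 2 (6.47%). Without 1 library the count was 4 to 6 (8.31 to 11.1%). Both hCAST vs WT and the interaction stayed at 0, with 24 and 31 of the 34 genes given an adjusted p by DESeq2. Limma on rescaled FPKM put the median of all genes at 0.11 to 0.15 in hIAPP vs WT and 0.10 to 0.13 in rIAPP vs WT, so changes there are relative to that shift. Where the count moved, the cause was not tested. No paired analysis was run, because no label states a pairing of libraries across groups. The title numbers of hIAPP and hIAPP_hCAST interleave, as do those of WT and hCAST, and whether they mark a block was not tested. Depth limits Cldn5, Sox17, Icam2, Apln and Sox7, which had 0 to 4 counts in WT 2.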

Other observations

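The basement membrane, the collagen and laminin sheet that endothelial cells share with pericytes, differed from WT in both IAPP groups. Of 13 genes, 9 rose and 0 fell in hIAPP (median log2 fold change 0.65), and 7 rose and 0 fell in rIAPP (median 0.54). The shares of all genes tested that rose and fell were 6.27% and 5.59% in hIAPP, and 10.7% and 12.6% in rIAPP. Lama5, a laminin chain of mature vessel walls, rose in rIAPP (1.47 ± 0.141 SE, adjusted p = 1.43e-06) and in hIAPP (0.83 ± 0.140 SE, adjusted p = 0.00172). Col4a2, a collagen IV chain, rose by 0.71 ± 0.165 SE in rIAPP and by 0.72 ± 0.165 SE in hIAPP. Col18a1, the source of endostatin, rose in hIAPP (1.55 ± 0.228 SE, adjusted p = 0.00104). The summed level of the 13 genes was 1192 to 1394 CPM in hIAPP and 1143 to 1277 CPM in rIAPP, against 682 to 942 CPM in WT, and 676 to 1063 CPM in hIAPP_hCAST against 724 to 894 CPM in hCAST. Fibroblast and matrix genes gave 11 higher of 14 in hIAPP (median 1.496) and 10 higher of 14 in rIAPP (median 1.51), with 0 lower in either.

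The 4 tested lymphatic genes had a median log2 fold change of -0.50 in rIAPP relative to WT. Lyve1, a hyaluronan receptor of lymphatic endothelium and of some macrophages, fell (-1.60 ± 0.236 SE, adjusted p = 0.00025). It was the only call, 1 of the 4, against 12.6% of all genes tested that fell. Of the 2 untested ones, Ccl21a had 0 counts in all 15 libraries. The 4 genes summed to 40.2 to 46.6 CPM in rIAPP, against 61.0 to 89.3 CPM in WT.

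Duct genes gave 3 higher of 12 in hIAPP and 3 higher and 1 lower in rIAPP, Schwann cell genes 3 higher of 9 in hIAPP and 1 higher and 1 lower in rIAPP, and lymphocyte genes 1 higher of 4 tested in hIAPP and 0 in rIAPP, all relative to WT. The shares of all genes tested that rose and fell were 6.27% and 5.59% in hIAPP, and 10.7% and 12.6% in rIAPP. Of 13 lymphocyte genes, 9 were not tested.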
